A study of Mus musculus with 32 samples.

Results

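The genes for the protein components of the cytosolic ribosome were followed across 8 groups of 4 mouse livers, with 1 Affymetrix MG-U74Av2 array per mouse. Probe sets belonged to this group when the platform annotation gave them 1 gene symbol and that symbol was an Rpl or Rps name followed by a digit, or Rplp0, Rplp1 or Rplp2. The S6 kinases, whose symbols start with Rps6k, were left out. The rule found 48 of the 12422 probe sets of the table, and these stand for 34 of 8251 genes named by a single symbol. Of the stalk proteins, Rplp0 alone was represented by a probe set with 1 symbol.

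All mice were males of the B6C3F1 hybrid, kept in single cages from the age of 5 months. All were fasted for 48 hours before they were killed at 22 months, controls included. The long-term restricted mice (LTCR) received 52.2 kcal each week, starting at 5 months. The mice restricted late (CR8) were given 77 kcal per week for 2 weeks from 20 months and 52.2 kcal per week for the next 6 weeks. The restricted diet was enriched so that intake of protein, vitamins and minerals per body weight stayed close to that of controls. In the drug groups the control diet was supplemented for 8 weeks, from 20 months, with metformin (MET), a biguanide that lowers glucose output, with glipizide (GLIP), a sulfonylurea that triggers insulin release, with both drugs (GM), with rosiglitazone (ROS), a ligand of the nuclear receptor PPAR gamma, or with a soy isoflavone extract (SOY). Control mice (CON) received 93 kcal each week of the control diet (AIN-93M). Doses are not given in the labels at hand. The labels give 4 mice per group, matching the 4 arrays of each. The series asks how far such agents mimic restriction, and every group was set against the same 4 CON arrays, so the comparisons with CON are not independent of each other.

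Cytosolic ribosomes are built from a large subunit, which forms peptide bonds, and a small subunit, which decodes the messenger RNA. Their proteins are made in near equal amounts, and most of the messengers start with a run of pyrimidines (the 5′ terminal oligopyrimidine or TOP motif), through which mTOR and the RNA-binding protein Larp1 set their translation. Liver holds large numbers of ribosomes and breaks part of them down during a fast.

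The deposited values are linear intensities, 1 per probe set and array. Array medians lay between 145 and 170.05, and arrays correlated with each other between 0.928 and 0.977. Liver identity was checked with 8 hepatocyte markers, none of which lay at or below an intensity of 27 in any group. Albumin (Alb) had 42629 ± 4196 in LTCR and 35061 ± 2698 in CON (SD, n = 4 each). Of 18 skeletal muscle markers, 16 were on the array, and their summed intensity stood at 3.14 to 9.56 times the median array in 5 arrays, which were CR8 1, CR8 2, ROS 4, SOY 3 and CON 3. In the other arrays it lay between 0.78 and 1.38 times. Acta1, the skeletal muscle actin, spanned 11.5 to 440 in the LTCR arrays and 8.5 to 7544 in the CON arrays. Calls of members in the comparisons with CON, and of LTCR with CR8, are given with and without these 5 arrays. The averages over arrays, the F test, the comparisons with MET and the values of other genes include them. In whole liver, fewer cells of a type and less RNA per cell cannot be told apart.

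Of the 48 ribosomal protein probe sets, 34 passed the filter on low values and stand for 26 genes. A probe set was tested where its mean log2 value over all arrays exceeded that of an intensity of 94.2, and 7357 probe sets of the whole table did so. Brightness differs between probes for reasons of probe chemistry and was not read as a level. The mean over the 32 arrays was over 4000 for 18 of the tested members, with Rpl41 (100213_f_at) brightest at 26047. The other 16 tested members had means between 118 and 2149. The 14 probe sets that were not tested had means between 10.2 and 83.3. For 8 genes no probe set was tested, which were Rpl35a, Rpl38, Rpl39, Rpl39l, Rps14, Rps15, Rps20 and Rps27l. The dimmest was 1 of the 2 probe sets of Rpl38, with 30 of 32 arrays below 27. Rpl39l, a paralog of Rpl39 known from testis, had a mean of 37, and Rps27l, a paralog of Rps27 that p53 induces, had 12.8. Those values give no measure of these genes, since dim probe sets of a gene can stand beside bright ones: Rps4x had 1 probe set at 9283 and 3 between 19.1 and 54.9. Rps4x, Rpl7 and Rps29 were tested through other probe sets.

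RefSeq promoters of the mouse build GRCm38.p6, from 250 bases before to 50 after the annotated start, were at hand for 27 of the 34 genes, in 36 promoters. Both strands were searched for CTTTCC, a short run of pyrimidines, and for CTTCCG, which on the other strand reads CGGAAG and holds the core letters read by ETS factors such as GABPA. CTTTCC was in the promoters of 16 of 27 ribosomal protein genes (59.3%), against 29.3% of the 27025 genes of the promoter table. CTTCCG was in 18 of 27 (66.7%), against 18.8% of all genes. Among the 12 matched genes with a probe set called higher in LTCR, 8 held CTTTCC and 8 held CTTCCG. The motifs share letters and matches of one can overlap matches of the other. A match is a description of the letters and not a site. The windows of 30 bases below are shown because they lie at the start of 4 genes that rose in LTCR (Rps18, Rpl10a, Rpl41 and Rpl19) and of 2 that did not pass the test there (Rps7 and Rps3a1), with the motif in capitals and the sequence on the strand of the gene.
Rps18 (chr17:33955656-33955685, minus strand): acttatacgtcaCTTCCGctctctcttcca
Rpl10a (chr17:28328574-28328603, plus strand): gcgctctgccttCTTTCCggtttccgcggc
Rpl41 (chr10:128549152-128549181, minus strand): cacgggccggctCGGAAGtgacgacaccga
Rpl19 (chr11:98026659-98026688, plus strand): gacttagcgtgaCTTCCGgctacccagagg
Rps7 (chr12:28635929-28635958, minus strand): tccacccacctaCTTCCGctgtccccacct
Rps3a1 (chr3:86142659-86142688, minus strand): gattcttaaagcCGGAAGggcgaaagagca
Counted with 1 as the first transcribed base, the capitals began at position -8 in Rps18, 22 in Rpl10a, -1 in Rpl41, -39 in Rpl19, 8 in Rps7 and -8 in Rps3a1. In Rpl41 and Rps3a1 the motif lies on the opposite strand and reads CGGAAG here. Windows were made only for genes with a match within 50 bases of the start, and the genes shown were picked from these. Their matches therefore cannot tell whether genes that rose differ from those that did not pass the test. Some genes called higher in LTCR, such as Rpl8 and Rplp0, had no such window.

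In livers of long-term restricted mice, 13 of the 26 tested ribosomal protein genes had a probe set called higher than in CON. Of the 34 tested probe sets, 13 were called higher and 0 lower in LTCR, at an adjusted p under 0.05 in limma's test. Of all 7357 tested probe sets, 7.53% were called higher and 11.8% lower. The median log2 difference of the 34 was 0.25, where a log2 difference is LTCR minus CON, against 0.00 for all tested probe sets. The called probe sets stand for 13 genes, which were Rpl6, Rpl8, Rpl10a, Rpl19, Rpl41, Rplp0, Rps3, Rps4x, Rps10, Rps18, Rps24, Rps27 and Rps28. Large subunit members passed in 6 of 16 cases and small subunit members in 7 of 18. In 12 probe sets the 4 LTCR arrays lay wholly above the 4 CON arrays, and in 1 wholly below, where 9.13% and 12% of all tested probe sets did so. Without the 5 arrays with muscle transcripts, 12 of the 13 were called again, all but Rps27, and a second Rps28 probe set (98085_f_at) was called beside them. The median of the 34 was then 0.28.

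Rps18 (98333_at), a protein of the head of the small subunit whose transcript often serves as a reference in PCR, had the smallest p. Its intensities were 17348, 17368, 15862 and 17200.4 in LTCR, against 11462, 12128, 10545 and 10952.5 in CON. Each LTCR array exceeded each CON array, and the log2 difference was 0.59 ± 0.08 (SE; adjusted p = 1.21e-05). Rps28 (100758_at), which lies near the exit of the messenger RNA channel, had 9809, 9174.5, 7890 and 8344 in LTCR, against 6047, 6589, 5285 and 5662 in CON. The groups did not overlap, with a difference of 0.58 ± 0.11 (adjusted p = 0.000483). Of the other small subunit members, Rps3, which lines the entry of that channel, differed by 0.34 ± 0.08. Rps10, which is ubiquitylated on stalled ribosomes, differed by 0.32 ± 0.08, and Rps4x, encoded on the X chromosome, by 0.27 ± 0.07. In these 3 the arrays also lay apart, but the calls of Rps10 and Rps4x were lost with quantile normalization. Rps27 (96301_at), a zinc finger protein of the small subunit, had 1383, 1389.6, 1465 and 1311 in LTCR and 1064, 1335.5, 1052 and 1129.9 in CON. Here CON 2 lay inside the LTCR range, and the difference was 0.28 ± 0.10 with adjusted p = 0.0487, close to the threshold.

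Among large subunit proteins, Rpl10a (100711_at), which forms the L1 stalk where spent transfer RNA leaves, had 6172, 5112, 6995 and 6607 in LTCR and 4631, 4600.3, 4029 and 3238 in CON. All LTCR arrays lay above all CON arrays, although LTCR 2 stood lowest by a wide margin, and the difference was 0.59 ± 0.10 (adjusted p = 7.67e-05). Rpl41 (100213_f_at), a very small and basic protein, had 34572, 30858, 26616.5 and 29406 in LTCR, against 18928, 22115, 21126 and 24193 in CON. The arrays lay apart, with a difference of 0.49 ± 0.10 (adjusted p = 0.000763). Rpl19 (97483_at), which helps to bridge both subunits and is another PCR reference, had 9587, 9002, 8378.5 and 8697 in LTCR, against 6409.9, 6426, 6417 and 6685 in CON. The CON arrays were tightly grouped and all below LTCR, and the difference was 0.46 ± 0.08 (adjusted p = 0.000129). Rpl8 (96575_at), which lies next to the peptidyl transferase centre, differed by 0.42 ± 0.09, with no overlap. Rplp0 (101213_at), the base of the stalk that recruits elongation factors, had 12855, 13588.5, 12772 and 12453.5 in LTCR and 9481.5, 8941.5, 10547 and 10217 in CON. Its arrays lay apart with a difference of 0.40 ± 0.07 (adjusted p = 7.26e-05). Rpl6 (96962_at), another protein of the large subunit, differed by 0.25 ± 0.07 (adjusted p = 0.0161), and LTCR 2, at 6353, lay inside the CON range of 5863 to 6722. With each LTCR or CON array left out in turn, 11 of the 13 calls were kept in every case. Rps27 was lost whichever array was left out save CON 2, with an adjusted p of up to 0.135 (without CON 3) and differences of 0.24 to 0.30. Rpl6 was lost without LTCR 1, at 0.22 with an adjusted p of 0.0668, and without CON 2, at 0.22 with an adjusted p of 0.0548.

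**Figure D1:**
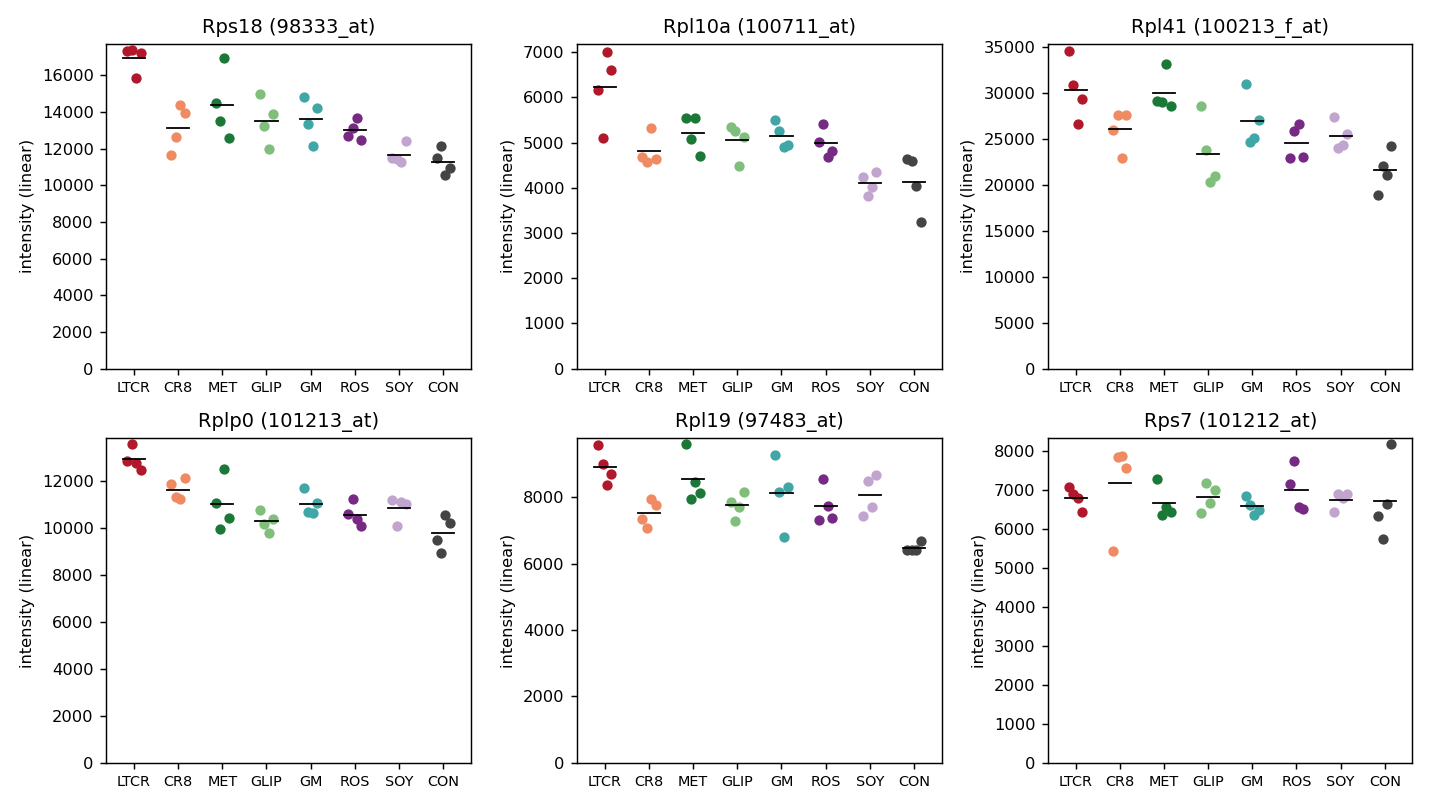
Linear intensity (vertical axes, from 0) of 6 ribosomal protein probe sets in the 8 groups (horizontal axes). Each point is 1 array and each line the mean of 4 arrays. In Rps18, Rpl10a, Rpl41, Rplp0 and Rpl19 every LTCR point lies above every CON point, and in Rps7 the groups overlap.

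Other bright members did not pass the test in LTCR. Rps7 (101212_at), which binds the p53 regulator MDM2 in human cells, had 7059.5, 6888, 6783 and 6433 in LTCR and 6316.5, 5729, 6633 and 8178 in CON. The LTCR arrays lay within the CON range, and the difference was 0.03 ± 0.10 (adjusted p = 0.882). Rps3a1 (101664_at), of the small subunit, differed by 0.09 ± 0.06; of the large subunit, Rpl7 (97695_s_at) differed by 0.15 ± 0.09, Rpl7a (98168_at) by 0.28 ± 0.10 (adjusted p = 0.0535) and Rpl37a (93822_at) by 0.37 ± 0.14 (adjusted p = 0.0681). Each of these differences was positive. The lowest value among the 34 was that of Rpl22 (92857_at), an RNA-binding protein that mice need for T cell development, at -0.28 ± 0.12 (adjusted p = 0.105). Its arrays read 647, 618, 587 and 506 in LTCR, against 772, 664.5, 702 and 734 in CON, and were apart without a call. Rps19 (94068_at), whose human gene is often mutated in Diamond-Blackfan anaemia, had -0.01 ± 0.17. Rpl7l1 (98138_at), a relative of Rpl7, had -0.03 ± 0.17. The PCR references Rpl13a and Rpl32, both dim here, had 0.01 ± 0.12 and 0.27 ± 0.22. Rps4l, a paralog of Rps4x, had 0.06 ± 0.27 and 0.12 ± 0.19 in its 2 probe sets. The signs of Rps7, Rps19, Rpl7l1, Rpl13a and both Rps4l probe sets turned when 1 array was left out.

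**Figure D2:**
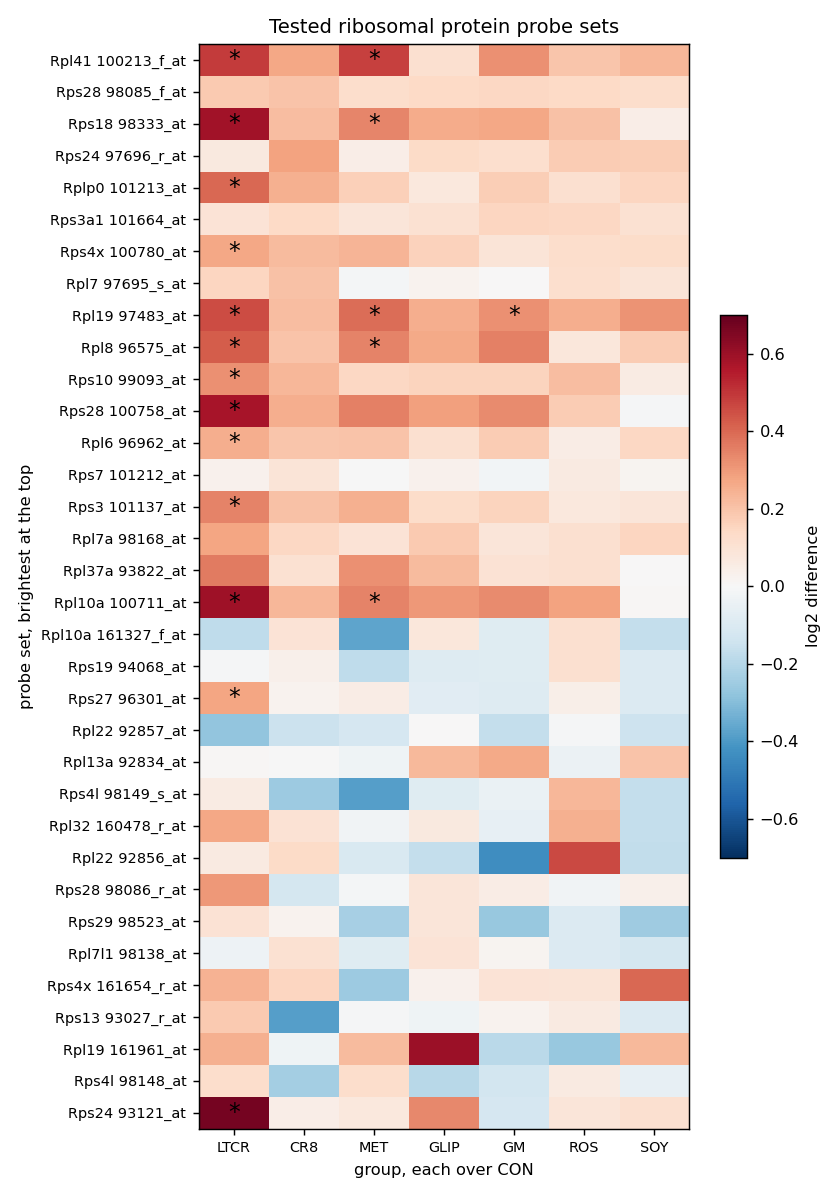
Log2 difference from CON (colour, red higher and blue lower) of the 34 tested ribosomal protein probe sets (rows, brightest on the array at the top) in the 7 other groups (columns). Stars mark an adjusted p under 0.05, which 13 probe sets reached in LTCR, 5 in MET and 1 in GM.

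Probe sets of 1 gene did not always move together. The second tested probe set of Rpl10a (161327_f_at) read 1437, 2203, 2042 and 2284 in LTCR and 2353, 2155, 2569.8 and 1870.4 in CON. The groups overlapped, and its difference of -0.18 ± 0.13 (adjusted p = 0.356) had the opposite sign to that of the called probe set. Rps24, a small subunit protein also mutated in Diamond-Blackfan anaemia in humans, was called higher in a dim probe set alone (93121_at), with 148, 185, 178 and 197 in LTCR, against 102, 119, 96 and 87.9 in CON. Those arrays lay apart, with the highest difference of all members, 0.67 ± 0.19 (adjusted p = 0.0124), close to the filter on low values. The bright Rps24 probe set (97696_r_at) read 11281.5, 11327, 12057 and 12054 in LTCR and 10514, 9369.8, 13154 and 11766 in CON, with overlap and a difference of 0.07 ± 0.08 (adjusted p = 0.606). Rps28 had a call in 100758_at alone, whereas its brightest probe set (98085_f_at) differed by 0.19 ± 0.08 (adjusted p = 0.106) and its dim one (98086_r_at) by 0.30 ± 0.18. The suffix of 98085_f_at marks probes shared by similar sequences, as does that of Rpl41. Of the 24 tested members with the plain suffix of probes for a single transcript, 12 were called in LTCR, against 1 of the 10 with another suffix. Where a gene was taken by its brightest probe set, 11 of 26 genes were called higher.

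**Figure D3:**
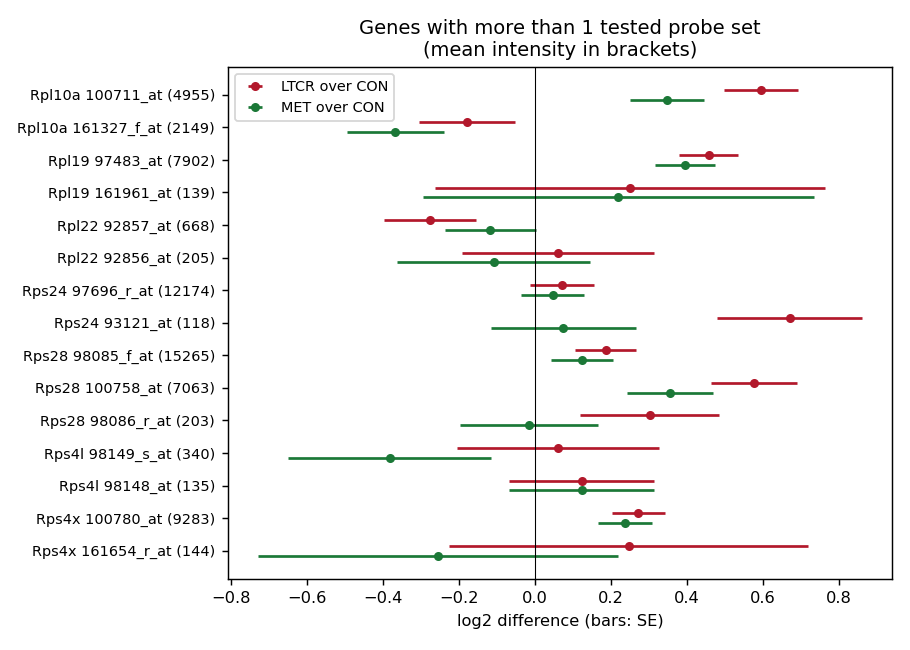
Log2 difference (horizontal axis, bars SE) in LTCR over CON and MET over CON for the 7 genes with more than 1 tested probe set (vertical axis, mean intensity in brackets). The 2 probe sets of Rpl10a lie on opposite sides of 0 in both comparisons, at 0.59 and -0.18 in LTCR.

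Calls also differed with brightness. Of the 18 members with a mean over 4000, 11 were called higher in LTCR (61.1%), and the lowest difference was 0.03. Of 459 other probe sets with a mean over 4000, 25.3% were called higher, against 7.53% of all tested. The median difference was 0.33 in the 18 members and 0.11 in the 459. The 16 dimmer members had 2 calls and a median of 0.11. Averaged over the 18 bright members, the log2 difference from the CON mean was 0.33 ± 0.04 in LTCR and 0.00 ± 0.04 in CON (SD, n = 4 arrays each). The same average over the 459 other bright probe sets was 0.065 ± 0.013 in LTCR, 0.029 ± 0.030 in CR8, 0.057 ± 0.021 in MET, 0.000 ± 0.080 in GLIP, 0.079 ± 0.033 in GM, 0.009 ± 0.018 in ROS, 0.078 ± 0.015 in SOY and 0.000 ± 0.015 in CON. The lowest LTCR array, at 0.271 over the 18 members, stood above the highest CON array, at 0.055. All 7 groups had a higher average of the 18 than CON, with 0.20 ± 0.06 in CR8, 0.22 ± 0.08 in MET, 0.16 ± 0.07 in GLIP, 0.18 ± 0.11 in GM, 0.15 ± 0.06 in ROS and 0.11 ± 0.04 in SOY. The arrays of these 6 groups overlapped each other, save that all CR8 arrays lay above all SOY arrays. The highest CR8 array, at 0.286, and the highest MET and GM arrays, at 0.295 each, reached into the LTCR range, and the lowest GM array, at 0.036, lay inside the CON range.

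**Figure D4:**
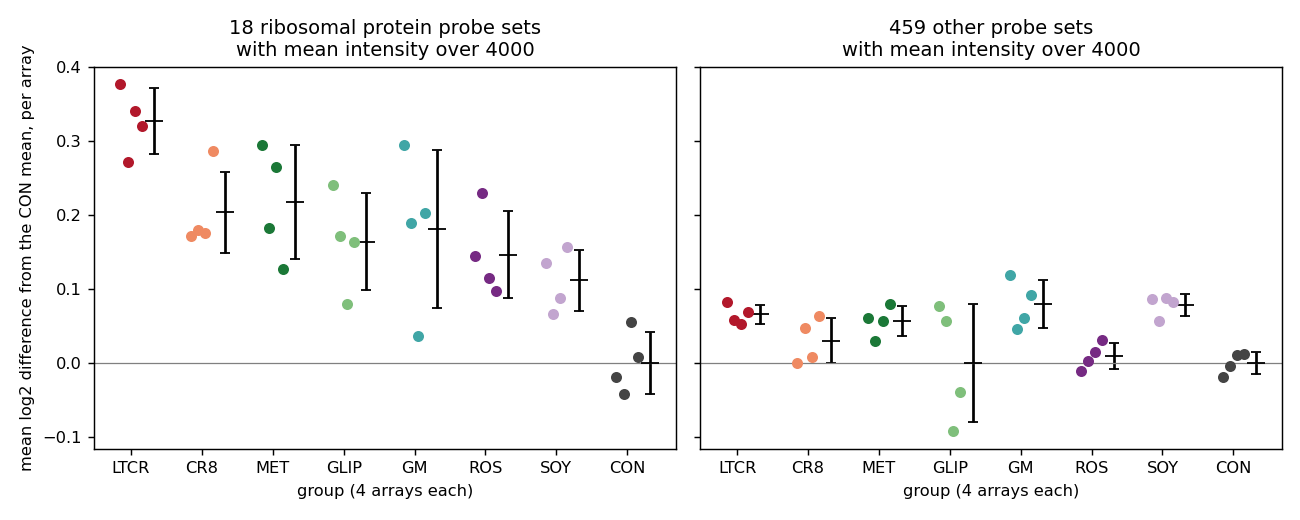
Mean log2 difference from the CON mean (vertical axis) per array, over 18 bright ribosomal protein probe sets (left) and 459 other bright probe sets (right), by group (horizontal axis). Points are arrays, and bars show the mean and SD of 4 arrays. In the left panel LTCR is highest at 0.33, while in the right panel no group mean exceeds 0.08.

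**Figure D5:**
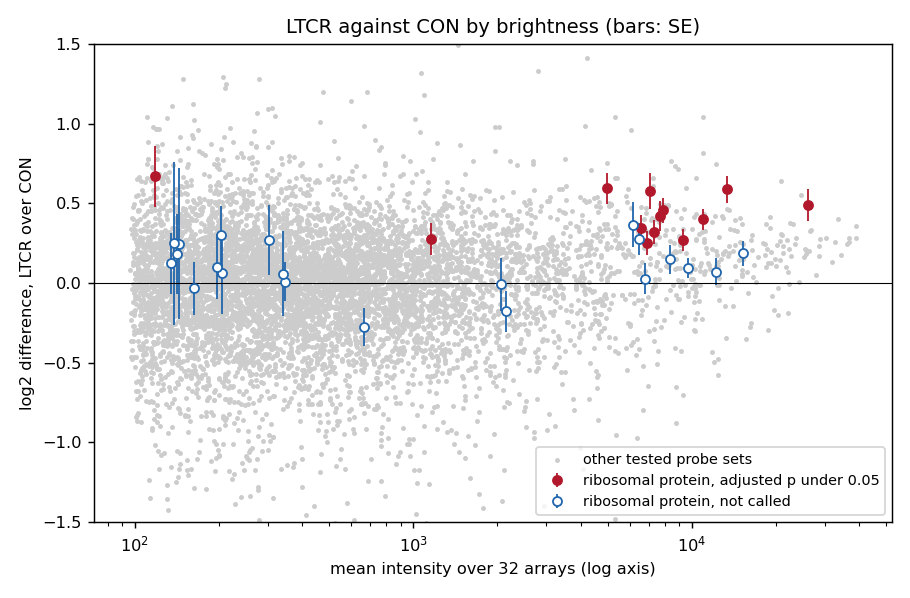
Log2 difference in LTCR over CON (vertical axis, bars SE) against mean intensity over 32 arrays (horizontal axis, log scale) for ribosomal protein probe sets and all others. Other probe sets beyond 1.5 in either direction are not drawn. Of the 13 filled points, 11 have a mean over 4000.

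Other measures were set beside each other in LTCR and CON, and the ranges of the 18S, Gapdh and Actb controls overlapped. Hepatocyte markers summed to 158900 to 182700 in LTCR and 134900 to 149100 in CON, and of 8 tested, 5 were called higher and 2 lower. Of 15 Kupffer cell and macrophage markers, 14 were on the array, with sums of 3179 to 4521 in LTCR and 5088 to 6283 in CON. Of 11 tested in that list, 0 were called higher and 2 lower (18.2%). Beside both lists, 7.53% of all tested probe sets were called higher in LTCR and 11.8% lower. Of the 459 other bright probe sets, 25.3% were called higher. The 18S ribosomal RNA control of the array, measured at the 3′ end, read 229 to 623 in LTCR, with a median of 298, and 509 to 640 in CON, with a median of 603. The ratio of the 5′ to the 3′ probe set of Gapdh, a measure of RNA integrity, was 1.14 to 1.18 in LTCR and 1.03 to 1.31 in CON. That of Actb was 0.535 to 0.697 in LTCR and 0.482 to 0.642 in CON. The part of these measures in the ribosomal protein calls was not tested.

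Metformin came next by number of calls. Of the 34 members, 5 were called higher and 0 lower in MET, or 14.7%, against 1.83% of all tested probe sets called higher and 2.34% called lower. All 5 were among the 18 bright members (27.8%), beside 8.71% of the 459 other bright probe sets called higher. The median difference of the 34 was 0.08, beside -0.03 for all. The 5 were Rpl41, Rps18, Rpl19, Rpl8 and Rpl10a, each of which was also called in LTCR against the same CON arrays. Rpl41 read 29099, 29003, 33225 and 28637 in MET, against 18928, 22115, 21126 and 24193 in CON. All MET arrays lay above all CON arrays, with a difference of 0.48 ± 0.10 (adjusted p = 0.00772). Rpl19 read 9625, 7965, 8469 and 8134 in MET, again wholly above CON, where the highest array was 6685. Its difference was 0.39 ± 0.08 (adjusted p = 0.006). Rps18 differed by 0.34 ± 0.08 (adjusted p = 0.0199), Rpl10a (100711_at) by 0.35 ± 0.10 (adjusted p = 0.0404) and Rpl8 by 0.35 ± 0.09 (adjusted p = 0.0331). The other Rpl10a probe set had -0.37 ± 0.13 (adjusted p = 0.0974), again of opposite sign. Rplp0 had 0.16 ± 0.07 (adjusted p = 0.163) in MET. Of the 5 calls, those of Rpl41 and Rpl19 were kept whichever MET or CON array was left out. Rpl8 was lost in 6 of 8 such cases, with adjusted p of 0.0614 to 0.0992, and was called without CON 2 or MET 4. Rpl10a was lost without CON 3, CON 4, MET 1, MET 2 or MET 3, and Rps18 without CON 3, CON 4 or MET 3. The number kept was thus 2 of 5 without CON 3, CON 4 or MET 3 and 3 without MET 1 or MET 2. Rps4x was newly called without CON 3 or MET 4, and Rps3 without CON 3. Without the 5 arrays with muscle transcripts, Rpl10a, Rpl8 and Rps18 were lost, with adjusted p of 0.134, 0.0989 and 0.0785, and Rps3 was newly called, at 0.335. In a fit to MET and CON alone the call of Rpl41 was the 1 left. Hepatocyte marker sums were 155300 to 163500 in MET, above the CON range of 134900 to 149100, and Kupffer cell marker sums were 5682 to 8186 in MET and 5088 to 6283 in CON. Their part in the MET calls was not tested.

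With glipizide beside metformin, Rpl19 was the 1 member of 34 called in GM (2.94%), against 0.87% of all tested probe sets called higher and 0.68% called lower. Among the 18 bright members the share was 5.56%, beside 2.83% of the 459 other bright probe sets called higher. Rpl19 read 9288, 8156, 6809 and 8329 in GM, against 6409.9, 6426, 6417 and 6685 in CON. The arrays lay apart, with a difference of 0.32 ± 0.08 (adjusted p = 0.0364). The dim Rpl19 probe set (161961_at) read 81.5, 215.9, 64.7 and 55.2 in GM and 175.4, 54.7, 66.6 and 191 in CON. Its groups overlapped, and its mean was lower in GM. Next by p were Rpl8, at 0.35 ± 0.09 (adjusted p = 0.051), and Rpl10a (100711_at), at 0.33 ± 0.10 (adjusted p = 0.0742). The call of Rpl19 was lost without the 5 arrays with muscle transcripts and without GM 1, GM 2, GM 4 or any of the 4 CON arrays. Rpl8 was newly called without GM 2, and Rpl8 and Rps28 (100758_at) beside Rpl19 without GM 3. When arrays were instead brought to 1 common median, the median difference of all probe sets in GM was 0.09 in place of -0.05, and 12 members were called higher, beside 5.61% of all tested probe sets called higher and 0.258% called lower. The median of the 34 members moved alike, to 0.22 with equal medians, against 0.09 as deposited. In SOY the same scaling gave a median of 0.08 over all probe sets, against -0.03 as deposited, and of 0.17 over the members, against 0.05, with no call. Against MET, GM had 0 of 34 members called, 3 with an unadjusted p under 0.05, and a median difference of -0.02, beside 1.3% of all probe sets called higher and 1.32% lower. With an unadjusted p under 0.05 were 17.8% of all.

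Restriction for 8 weeks gave no call. In CR8 0 of 34 members passed limma's test, beside 0.177% of all tested probe sets called higher and 0.367% lower. At an unadjusted p under 0.05, 15 of the 34 were higher and 0 lower, against 5.56% of all tested probe sets higher. All 15 were among the 18 bright members, and 57 of the 459 other bright probe sets were higher at that threshold. The median difference was 0.14, beside -0.02 for all. Rplp0 read 11890.1, 11320.2, 11225 and 12111 in CR8, against 9481.5, 8941.5, 10547 and 10217 in CON. Its arrays lay apart, and the difference was 0.25 ± 0.07 (adjusted p = 0.0712). The bright Rps24 probe set differed by 0.28 ± 0.08 (adjusted p = 0.111) and Rps4x (100780_at) by 0.22 ± 0.07 (adjusted p = 0.147). Without CON 3, 1 of the arrays with muscle transcripts, 2 members were called higher in CR8, Rplp0 at 0.286 and Rps24 (97696_r_at) at 0.365, with adjusted p of 0.0407 and 0.0256. Without all 5 such arrays, which leaves 2 in CR8 and 3 in CON, 0 were called and the median was 0.22. Muscle markers stood at 4.28 and 5.11 times the median array in CR8 1 and CR8 2, and at 6.79 times in CON 3. Kupffer cell marker sums were 3271 to 5069 in CR8, all below the CON range of 5088 to 6283. The part of either in the CR8 values was not tested.

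Glipizide, rosiglitazone and soy isoflavones gave no calls among the members. In GLIP 0 of 34 passed, beside 0.122% of all tested probe sets called higher and 0.0136% lower. At an unadjusted p under 0.05, 6 members were higher, beside 5.23% of all. The smallest p were those of Rpl19 at 0.26 ± 0.08 (adjusted p = 0.251), Rps18 at 0.26 ± 0.08 and Rpl10a (100711_at) at 0.30 ± 0.10. In ROS 0 of 34 passed, beside 0.0272% of all called higher and 0.109% lower. Of the 34, 6 had an unadjusted p under 0.05, all higher, beside 4.01% of all. They were led by Rpl19 at 0.25 ± 0.08 (adjusted p = 0.252), Rpl10a at 0.28 ± 0.10 and Rps10 at 0.22 ± 0.08. In SOY 0 of 34 passed, as did 0% of all tested probe sets, and 4 had an unadjusted p under 0.05, all higher, beside 3.22% of all. The smallest p were those of Rpl19, at 0.31 ± 0.08 (adjusted p = 0.391), Rpl41, at 0.24 ± 0.10, and Rplp0, at 0.15 ± 0.07. Without the 5 arrays with muscle transcripts, 0 members were again called in each of the 3 groups. In each of the 3 groups the members with an unadjusted p under 0.05 were all bright. Of the 459 other bright probe sets, 36 were higher at that threshold in GLIP, 37 in ROS and 61 in SOY. The median differences of the 34 members were 0.11 in GLIP, 0.11 in ROS and 0.05 in SOY. The bright Rpl19 probe set (97483_at) lay wholly above CON in each of the 7 groups. Its CON arrays had an SD of 134, against 358 to 1021 in the other groups. The dim Rpl19 probe set (161961_at), at 54.7 to 191 in CON, overlapped CON in each of the 7 groups.

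Long-term and short restriction were compared directly. In LTCR 4 of 34 members were called higher than in CR8 and 0 lower (11.8%), beside 4.65% of all tested probe sets called higher and 7.34% lower. Of the 459 other bright probe sets 11.8% were called higher, the same share as of the 34 members. Among the 18 bright members 3 were called higher (16.7%). Rps18 read 17348, 17368, 15862 and 17200.4 in LTCR, against 11628, 12611, 14378 and 13969 in CR8. The arrays lay apart, with a difference of 0.37 ± 0.08 (adjusted p = 0.00406). Rpl10a (100711_at) differed by 0.36 ± 0.10 (adjusted p = 0.0142), Rpl19 by 0.24 ± 0.08 (adjusted p = 0.0426) and the dim Rps24 probe set by 0.62 ± 0.19 (adjusted p = 0.0308). The bright Rps24 probe set pointed the other way, at -0.21 ± 0.08 (adjusted p = 0.0942), with all LTCR arrays below all CR8 arrays. Without the 5 arrays with muscle transcripts, which leaves CR8 with 2 arrays, none of the 4 was called. Rps18 then had 0.26 with an adjusted p of 0.147, Rpl10a 0.31 with 0.165, Rps24 (93121_at) 0.46 with 0.209 and Rpl19 0.18 with 0.325, and the 1 member called was Rps4l (98149_s_at), at 0.97 with an adjusted p of 0.0298. With 1 array left out in turn, Rps18 was called in all 8 cases. Rpl19 was lost without CR8 1, CR8 2, CR8 4, LTCR 1, LTCR 2 or LTCR 4, Rps24 without CR8 2, CR8 3, LTCR 2 or LTCR 4, and Rpl10a without LTCR 4. Rps28 (100758_at) was newly called without CR8 3 or LTCR 3.

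Against MET, LTCR had 2 of 34 members higher and 0 lower (5.88%), beside 4.3% of all tested probe sets called higher and 6.09% lower. These were Rplp0, with 12855, 13588.5, 12772 and 12453.5 in LTCR, against 11081.5, 9969.8, 12517.5 and 10427 in MET, and the dim Rps24 probe set. Of the 18 bright members 1 was called higher (5.56%), beside 7.63% of the 459 other bright probe sets. For Rplp0 the groups overlapped through MET 3, and the difference was 0.24 ± 0.07 (adjusted p = 0.019). Rps24 (93121_at) differed by 0.60 ± 0.19 (adjusted p = 0.0418). Without LTCR 2 both calls were lost, Rplp0 with an adjusted p of 0.0652 and Rps24 with 0.091, and Rpl10a (100711_at) was newly called, at 0.34 with an adjusted p of 0.031. Both were also lost without MET 2 or MET 4, with no new call. Rps24 was lost without LTCR 3, LTCR 4 or MET 1 as well, and Rps18 was newly called without MET 3, at 0.33 with an adjusted p of 0.00829. Rpl41 had 0.01 ± 0.10 between these groups (adjusted p = 0.952).

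Across the 8 groups, limma's F test over the 7 differences from CON called 12 of 34 members (35.3%), beside 27% of all tested probe sets. It called 10 of the 18 bright members (55.6%), beside 49.7% of the 459 other bright probe sets, and 2 of the 16 dimmer members (12.5%). The group mean was highest in LTCR for 20 of the 34 and lowest in CON for 15. Among the 18 bright members the order was LTCR highest in 13 and CR8 highest in 4, and CON lowest in 15. For Rps18 the group means were 16944.5 ± 726 in LTCR, 13146 ± 1263 in CR8, 14372.5 ± 1873 in MET, 13518 ± 1248 in GLIP, 13615.5 ± 1165 in GM, 12991 ± 521 in ROS, 11654 ± 521 in SOY and 11272 ± 683 in CON (SD, n = 4 each). The lowest LTCR array, at 15862, lay above every other array except MET 3, at 16932, and SOY and CON overlapped. For Rps7 the means spanned only 6571 in GM to 7168 in CR8, and the groups overlapped.

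Within groups, most bright members varied together from array to array. The deviation of a member from its group mean was correlated with the mean deviation of the other 17 bright members over the 32 arrays. Pearson's r was highest for Rps4x, at 0.71, and Rpl8, at 0.70, and lowest for Rps7, at 0.22, and Rpl37a, at -0.16. These correlations are descriptive, since members share each array's RNA and scaling. The SD within groups of the 18, on the log2 scale, had a median of 0.12 and spanned 0.08 (Rps3a1) to 0.21 (Rpl37a), beside a median of 0.15 in the 459 other bright probe sets and 0.26 in the 16 dimmer members.

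For other genes of the translation machinery, the counts stand beside those of all tested probe sets in LTCR, 7.53% called higher and 11.8% lower, and in MET, 1.83% higher and 2.34% lower. Among the 459 other probe sets with a mean over 4000, 25.3% were called higher in LTCR and 8.71% in MET. The lists of genes that follow were not split by brightness. Of 18 tested genes for elongation factors and other TOP messengers, 4 were called higher (22.2%) and 0 lower in LTCR, with a median difference of 0.20 against 0.00 for all. Eef2, which moves the ribosome along the messenger, had 11623 ± 1507 in LTCR and 7645 ± 406 in CON and differed by 0.59 ± 0.11 (adjusted p = 0.000243). Tpt1, a TOP-regulated tumour protein, differed by 0.24 ± 0.06, Npm1, a nucleolar chaperone, by 0.36 ± 0.10, and Eef1a1, which delivers aminoacyl transfer RNA, by 0.28 ± 0.08. In MET 3 of these 18 were called higher (16.7%), Tpt1 at 0.24 ± 0.06, Eef2 at 0.41 ± 0.11 and Eef1a1 at 0.28 ± 0.08. In CR8, GLIP, GM, ROS and SOY 0 of the 18 were called, with medians from 0.05 to 0.12.

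Of 39 tested genes of ribosome biogenesis and RNA polymerase I, 5 were called higher (12.8%) and 2 lower (5.13%) in LTCR, with a median of 0.06, beside 7.53% and 11.8% of all tested probe sets. Ncl, the nucleolar protein nucleolin, rose by 0.45 ± 0.09 in LTCR (adjusted p = 0.000389) and by 0.36 ± 0.09 in CR8 (adjusted p = 0.0408). Imp3, which acts in small subunit maturation, differed by 0.41 ± 0.08, Polr1c, a subunit of RNA polymerases I and III, by 0.32 ± 0.08, and Ipo5, an importin that carries ribosomal proteins into the nucleus, by -0.58 ± 0.11. Of 25 tested genes for initiation factors and Eif4e-binding proteins, 2 were called higher (8%) and 1 lower (4%) in LTCR. That share of higher calls was near the share of all tested probe sets. They were Eif3b at 0.36 ± 0.07, Eif4ebp2 at 0.45 ± 0.10, and Eif3j1 at -0.63 ± 0.13. Larp1 was called higher in LTCR, at 0.35 ± 0.09 (adjusted p = 0.00367), and in GM, at 0.39 ± 0.09 (adjusted p = 0.0213), and was the 1 called of 5 tested genes for S6 kinase and its regulators in each.

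For the ribosomal proteins of mitochondria the shares of calls in LTCR were close to or below those of all tested probe sets. Of 57 tested genes, 5 were called higher (8.77%) and 4 lower (7.02%), beside 7.53% and 11.8% of all, with a median difference of -0.03. Mrps24 differed by 0.38 ± 0.07, Mrpl38 by 0.44 ± 0.10, Mrpl33 by -0.51 ± 0.14 and Mrpl9 by 0.42 ± 0.12. In CR8 1 was called, Mrpl18 at 0.33 ± 0.07. In MET 2 were called higher (3.51%) and 1 lower (1.75%), beside 1.83% and 2.34% of all, Mrps24 at 0.29 ± 0.07, Mrps28 at 0.44 ± 0.11 and Mrpl24 at -0.24 ± 0.06. GLIP, GM, ROS and SOY had 0 called.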

How the data were processed

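Liver RNA of 32 mice was measured on 32 arrays, 4 in each of 8 groups taken from the sample titles. The authors deposited 1 linear intensity per probe set and array, already scaled: by the values themselves, column means without the outer 2% at each end lay between 500.38 and 500.47. Software, background correction, detection calls and scan batches are not given in the sources used here, so precision rests on the number of arrays. Genes were named from the platform annotation where it gives 1 symbol (10833 of 12422 probe sets that are no controls; 396 have several, 1193 none).

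Tests used log2(intensity + 27), which understates changes of dim probe sets; 27 is the 20th percentile of the table. The filter was the 40th percentile, 94.2. Differences came from limma 3.58.1 in R 4.3.3 (trended eBayes, 1 fit over 8 groups, 24 residual and 4.59 prior degrees of freedom), adjusted by Benjamini-Hochberg over 7357 probe sets in each of 10 comparisons, at 0.05. The script was tested on simulated data.

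The members, lists, brightness limit of 4000 and tests were chosen with earlier results of these data known. Members named were those called with the smallest p (up to 10 each way), the 3 smallest p where fewer than 3 were called, the 3 highest and lowest in LTCR, genes whose probe sets disagree, and stalk, PCR reference and paralog genes. Of other lists, up to 4 called genes were named. Lists of lymphocyte, erythroid, endothelial, stellate, bile duct, fat and pancreas markers each gave at most 1 call each way in LTCR against CON, and no bile duct marker was tested. Replicate numbers did not pair the arrays. Alternatives were other scalings, added values, filters, fits and arrays left out.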

Additional observations from a re-analysis of the deposited data

Results flagged for a closer look

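In 1 control array a reference gene stood away from the other 3: Rpl19 (97483_at) read 6684.9 in CON 4, and 6409.9 to 6425.7 in the other CON arrays. Rps18 (98333_at) read 15861.8 in LTCR 3, below the 17200.4 to 17367.6 of the other LTCR arrays. The gap of each, divided by the range of the group, exceeded Dixon's limit for 4 arrays. Of 272 sets of 4 arrays checked over the 34 tested members, 18 did so (6.62%), and chance gives about 1 in 20. CON 4 lay towards the LTCR values of Rpl19, and LTCR 3 towards the CON values of Rps18.

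The difference from CON was larger in LTCR than in CR8 for 4 members, by limma's test of LTCR against CR8. It was larger by 0.37 for Rps18, by 0.364 for Rpl10a (100711_at), by 0.241 for Rpl19 and by 0.623 for the dim Rps24 probe set (93121_at). With CR8 1 and CR8 2, which held muscle transcripts, left out beside the 3 other such arrays, none of these 4 was called, with adjusted p of 0.147 to 0.325, and the 1 member called was Rps4l (98149_s_at).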

How the results depend on the processing

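The count of members called in LTCR against CON, 13, stayed between 10 and 15 under every alternative run and was 11 to 14 with 1 array left out, of which 11 or 12 were among the 13. With quantile normalization 10 of the 13 were called, and Rps4x (100780_at), Rps10 and Rpl6 were lost. Their differences were then 0.159, 0.188 and 0.127, with adjusted p of 0.0769, 0.0946 and 0.217 in limma's test. In CR8 the count was 0 to 2 with 1 array left out. In MET the count of 5 became 2 with quantile normalization, 3 with no filter, 3 without the 5 arrays with muscle transcripts, 1 in a fit to both groups alone, and 2 to 6 with 1 array left out. In GM the count of 1 became 12 with equal medians, 2 with a filter at the 60th percentile or 1 probe set per gene, 0 with quantile normalization, no filter, without the 5 arrays or in a fit to both groups alone, and 0 to 3 with 1 array left out. Between LTCR and CR8 the count of 4 became 2 with no filter, 1 without the 5 arrays, 1 in a fit to both groups alone and 1 to 5 with 1 array left out. Between LTCR and MET the count of 2 became 1 with quantile normalization, an added value of 1 or 1 probe set per gene, 0 with equal medians or in a fit to both groups alone, and 0 to 3 with 1 array left out. The F test called 7 members with no filter. The causes were not tested, beyond the fewer or more probe sets and arrays that these settings use by construction. With the replicate number as a block, LTCR had 12 calls against CON, without Rps27 (adjusted p 0.0586), and between LTCR and CR8 Rpl19 was lost (0.0516) and Rps28 100758_at newly called (0.0498), so that the count stayed at 4; in the 8 other comparisons the same members were called; deviations of arrays with the same number correlated between -0.232 and 0.244 over 112 pairs, and 4 of 32 arrays correlated best with their own number, so the number was not taken to pair them. Counts do not say which members were called. Signs turned in LTCR against CON for uncalled members alone. With quantile normalization these were Rps7 (-0.075), Rps3a1 (-0.018), Rps24 97696_r_at (-0.047) and Rps28 98085_f_at (-0.017), with equal medians Rps19 (0.027), and without the 5 arrays Rps4l 98148_at (-0.005). With 1 array left out the ranges that crossed 0 were -0.044 to 0.127 for Rps7, -0.215 to 0.467 for Rps4x 161654_r_at, -0.171 to 0.478 for Rpl19 161961_at, -0.059 to 0.064 for Rpl13a, -0.221 to 0.161 for Rpl22 92856_at, -0.100 to 0.367 for Rps13, -0.158 to 0.119 for Rps19, -0.011 to 0.152 for Rps24 97696_r_at, -0.134 to 0.081 for Rpl7l1, -0.005 to 0.219 for Rps4l 98148_at and -0.172 to 0.224 for Rps4l 98149_s_at. Having 4 arrays a group and the lack of detection calls limit dim members most.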

Other observations

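A further 39 probe sets carry a ribosomal protein symbol among several, mostly beside pseudogenes, and were not members; 35 were tested. In LTCR against CON 16 of the 35 were called higher (45.7%) and 0 lower, with a median difference of 0.20. In MET 8 were called higher (22.9%), in GM 6 (17.1%), in CR8 1 (2.86%), and in GLIP, ROS and SOY 0. Of all tested probe sets, 7.53% were called higher in LTCR, 1.83% in MET, 0.87% in GM and 0.177% in CR8. Of the 459 other bright probe sets the shares were 25.3%, 8.71%, 2.83% and 0.218%, and the 35 were not split by brightness. The 35 probe sets can take signal from each of the genes they name. The probe set of Rplp1 and Gm13777 (100694_at), Rplp1 being a stalk protein that binds Rplp0, differed by 0.41 ± 0.07 in LTCR (adjusted p = 0.000127), by 0.28 ± 0.07 in MET and by 0.34 ± 0.07 in GM. That of Rps6, the substrate of S6 kinase, and Rps6-ps4 (101577_at) differed by 0.19 ± 0.09 in LTCR (adjusted p = 0.157). The probe set of Rpl22l1, Orc5 and Gm15421 (93987_f_at) had 0.61 ± 0.12 in LTCR (adjusted p = 0.000363). The 1 call in CR8 was the probe set of Rpl5 and Rpl5-ps2 (101129_at), at 0.33 ± 0.07 (adjusted p = 0.0192), which had 0.08 ± 0.07 in LTCR (adjusted p = 0.484).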
